A study of Mus musculus with 8 samples.

Results

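The 6 genes Gadd45a, Gadd45b, Gadd45g, Txnip, Mt1 and Mt2 are stress and metallothionein genes that inhibitors of histone deacetylases (HDACs) often raise in cultured cells. They were chosen by gene symbol from the 12260 genes of the deposited table, and all 6 were in the table and passed the filter on low counts that left 11934 genes for testing. The cells were MBL2, a T-cell lymphoma line of C57BL/6 mice that was induced by Moloney murine leukaemia virus. They were left untreated (control) or were given romidepsin, talazoparib or both drugs together (combination) in a single dose, and RNA was taken at 24 h. Romidepsin is an inhibitor of class I HDACs and talazoparib an inhibitor of poly(ADP-ribose) polymerases (PARPs). Each of the 4 groups had 2 libraries of polyadenylated RNA with 28419156 to 38913292 gene counts. All groups are a single cell line, and the sources used here name no doses. Nothing tells whether the 2 libraries of each group were separate cultures, so a p-value here reflects how these libraries vary, which may be technical variation.

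The GADD45 proteins are small stress sensors without enzyme activity. They bind cell-cycle and MAP kinase regulators, and Gadd45a is a classic gene of the response to DNA damage. Txnip encodes the thioredoxin-interacting protein, an alpha-arrestin that binds thioredoxin and limits glucose uptake. Mt1 and Mt2 encode metallothioneins, short cysteine-rich proteins that hold zinc and copper and are switched on through metal response elements (MREs) in their promoters by the zinc-sensing factor Mtf1.

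With talazoparib, averaged over the libraries with and without romidepsin, 4 of the 6 genes changed: Txnip and Gadd45a rose, and Mt1 and Mt2 fell. This averaged contrast was chosen after the group comparisons were seen. In the same contrast 30.2% of all tested genes were called. Txnip rose 1.83-fold, Gadd45a rose 1.52-fold, Mt1 was 1.59-fold lower and Mt2 was 1.55-fold lower. Gadd45b and Gadd45g did not pass the test. In the single comparisons with the control, Mt1 did not pass with talazoparib or with the combination, and Gadd45a passed only narrowly with talazoparib. With romidepsin, the HDAC inhibitor, none of the 6 genes passed, in a comparison that called 0.0251% of all tested genes (3 of 11934). All 6 means lay above those of the control, while the median log2 change of all tested genes was 0.00. The 6 genes share the same control libraries, and the log2 change of Txnip ranged from -0.040 to 0.30 when single libraries were left out.

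The promoters of the 4 genes that moved are shown because 2 of them rose and 2 fell with the same drug. Each is the 250 bases before the RefSeq start on GRCm38.p6, 5′ to 3′ on the gene's strand. Mt1 (gene ID 17748, plus strand) is at chr8:94178839-94179088 and Mt2 (17750, plus strand) at chr8:94172368-94172617. Txnip (56338, plus strand) is at chr3:96557707-96557956 and Gadd45a (13197, minus strand) at chr6:67037408-67037657. Capitals mark the MRE cores TGCACNC and TGCGCNC and the CCAAT box, each on either strand.
Mt1: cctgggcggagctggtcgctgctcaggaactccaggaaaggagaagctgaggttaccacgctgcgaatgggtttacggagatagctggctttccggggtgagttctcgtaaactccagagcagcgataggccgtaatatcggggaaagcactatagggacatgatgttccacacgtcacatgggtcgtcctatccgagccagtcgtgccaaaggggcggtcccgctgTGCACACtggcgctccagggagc
Mt2: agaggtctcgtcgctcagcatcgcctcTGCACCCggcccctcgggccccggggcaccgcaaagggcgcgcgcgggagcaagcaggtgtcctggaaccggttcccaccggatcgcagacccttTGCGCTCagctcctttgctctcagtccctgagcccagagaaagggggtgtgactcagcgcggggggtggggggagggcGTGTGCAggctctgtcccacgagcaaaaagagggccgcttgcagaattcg
Txnip: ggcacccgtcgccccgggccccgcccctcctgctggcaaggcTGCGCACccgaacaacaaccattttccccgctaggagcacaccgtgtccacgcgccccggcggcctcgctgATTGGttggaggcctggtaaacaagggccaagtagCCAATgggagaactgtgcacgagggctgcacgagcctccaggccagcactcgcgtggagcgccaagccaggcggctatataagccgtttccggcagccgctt
Gadd45a: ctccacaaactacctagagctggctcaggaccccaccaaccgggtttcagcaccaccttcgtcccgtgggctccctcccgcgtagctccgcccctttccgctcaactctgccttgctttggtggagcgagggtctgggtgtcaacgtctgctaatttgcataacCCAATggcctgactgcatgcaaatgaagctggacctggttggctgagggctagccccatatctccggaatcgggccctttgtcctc

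The Mt2 window held 3 MRE cores, the Mt1 and Txnip windows 1 each and the Gadd45a window 0. Of 32851 promoter windows of this length, 21.41% held at least 1 MRE core. The annotated starts of the metallothionein genes differ between sources, so a window counted from the RefSeq start does not cover the region before every start. GENCODE lists Mt1 transcripts that begin 122 and 152 bases downstream of it, and an Mt2 transcript that begins 46 bases downstream. In the 300-base windows that run on to 50 bases after the RefSeq start, Mt1 held 3 MRE cores, Mt2 held 4, Txnip 1 and Gadd45a 0, and 25.7% of all such windows held at least 1. CCAAT stood 2 times in the Txnip window and 1 time in the Gadd45a window, and was in 33.85% of windows. The E-box CACGTG was in 1 place each in the Gadd45b and Gadd45g windows, in none of the 4 shown, and in 6.021% of all windows. The GC box GGGCGG (32.74% of windows) was in the Mt1, Txnip, Gadd45a and Gadd45b windows, the antioxidant response core TGACNNNGC (10.16%) in the Mt2 and Gadd45g windows, and TATAAA (12.37%) in the Gadd45b and Gadd45g windows. These are matches of letters on both strands and say nothing of binding.

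Levels per length set the members far apart. In the controls, mean FPKM (fragments scaled to gene length and library size) were 2613 for Mt2, 2467 for Mt1, 84.0 for Gadd45a, 51.5 for Txnip, 5.58 for Gadd45g and 3.87 for Gadd45b. The metallothioneins ranked 10 (Mt2) and 12 (Mt1) among 12260 genes by control FPKM, and 34 and 44 with talazoparib. Together they took 0.251% to 0.340% of all gene counts in the libraries without talazoparib and 0.175% to 0.239% in those with it. Gadd45a made up 89.8% to 91.0% of the summed FPKM of the 3 Gadd45 genes without talazoparib and 92.7% to 94.2% with it. Between the libraries of the whole study, CPM (counts scaled to library size with TMM factors) differed by at most 2.45-fold for Txnip, 2.32-fold for Gadd45a and Mt1, 1.91-fold for Mt2, 1.77-fold for Gadd45b and 1.74-fold for Gadd45g.

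**Figure D1:**
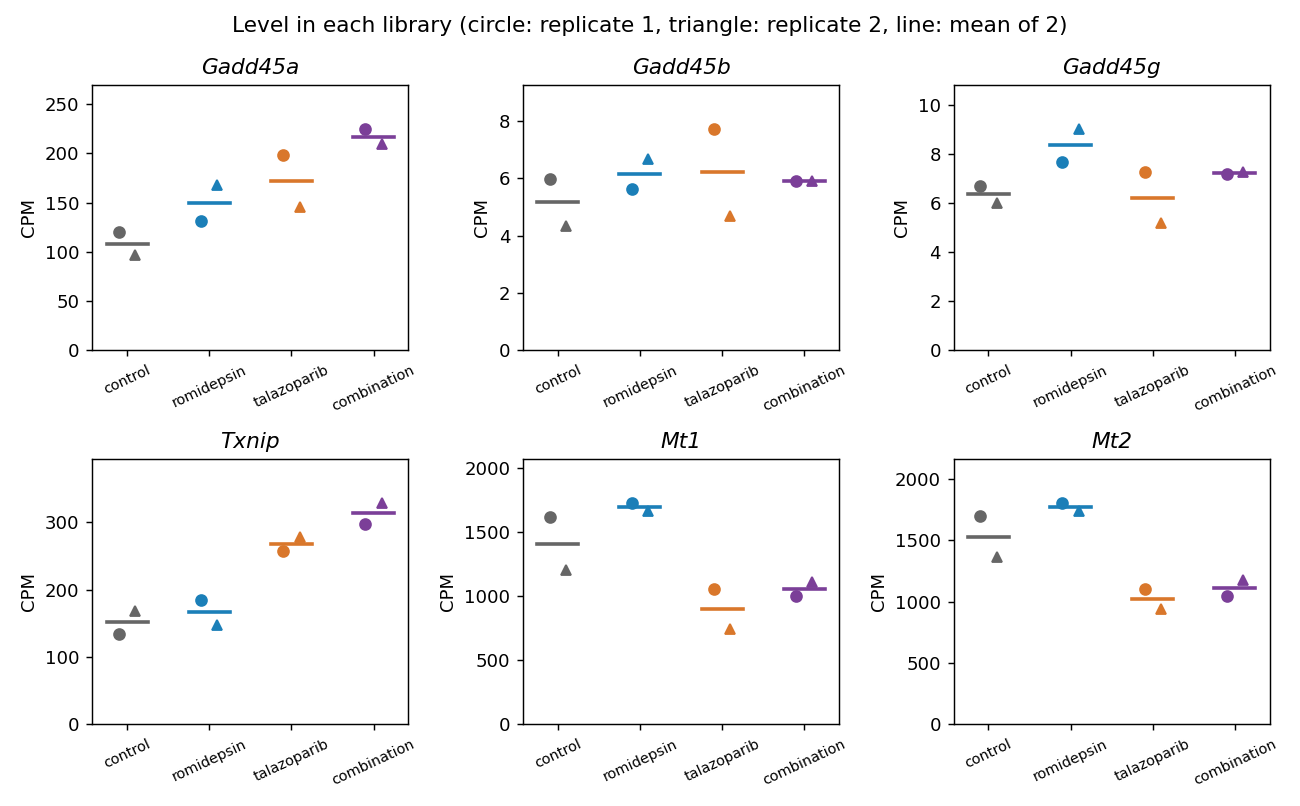
CPM of each of the 6 genes (vertical axis, from 0) in the 8 libraries by treatment group; circles are replicate 1, triangles replicate 2 and lines the mean of 2. Txnip lies at 257 or more in all 4 libraries with talazoparib and at 184 or less in the other 4, and Mt1 and Mt2 lie lower in all 4 libraries with talazoparib.

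Txnip was the member with the clearest separation. Its level was 134 and 168 CPM in the 2 control libraries, 184 and 148 CPM under romidepsin, 257 and 278 CPM under talazoparib, and 298 and 329 CPM under the combination. Every library with talazoparib was above every library without it, which was also true, in either direction, of 32.8% of all tested genes. The group means were 151 ± 24.0, 166 ± 25.8, 267 ± 15.1 and 313 ± 21.7 CPM (SD, n = 2 each).

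Against the control, Txnip rose with talazoparib by 0.82 on the log2 scale (SE 0.14, adjusted p = 0.0134) and with the combination by 1.05 (SE 0.14, adjusted p = 0.00414), by the quasi-likelihood test of edgeR, adjusted by Benjamini-Hochberg over all tested genes, which gave every adjusted p below unless another tool is named. It was also higher in the combination than with romidepsin alone (log2 0.91, adjusted p = 0.0104) and higher with talazoparib than with romidepsin (log2 0.69, adjusted p = 0.0280). The talazoparib call against control was lost without control replicate 1 (log2 0.66, adjusted p = 0.104), and the combination call against control held under all 17 alternatives tried. Against romidepsin, the combination call was lost without romidepsin replicate 2 (adjusted p = 0.0716) or combination replicate 2 (0.0828). Against romidepsin, the talazoparib call was lost without either romidepsin library, without talazoparib replicate 2 and without either combination library (adjusted p of 0.0520 to 0.138), and with the compared groups alone (0.0889). These comparisons share libraries and are not independent. In bulk RNA, a change in the number of cells that express a gene and a change in RNA per cell cannot be told apart.

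Gadd45a, the damage-inducible member, stood at 120 and 96.8 CPM in the controls, 132 and 168 CPM under romidepsin, 198 and 146 CPM under talazoparib, and 225 and 210 CPM under the combination. The order of the group means was control, romidepsin, talazoparib and combination, at 108 ± 16.3, 150 ± 25.8, 172 ± 37.0 and 217 ± 10.7 CPM (SD, n = 2 each). The control libraries were the lowest and the combination libraries the highest, and the romidepsin and talazoparib libraries overlapped. Neighbours in this order did not pass a test: romidepsin against control gave log2 0.47 (adjusted p = 0.940), talazoparib against romidepsin 0.20 (adjusted p = 0.495) and combination against talazoparib 0.33 (adjusted p = 1.0).

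Gadd45a rose with the combination by 1.0 on the log2 scale against the control (SE 0.18, 95% interval 0.59 to 1.42, adjusted p = 0.0107). That call was lost without control replicate 2 (adjusted p = 0.0792) or either combination library (0.0616 and 0.0534). With talazoparib alone it rose by 0.67 (SE 0.18), but at an adjusted p of 0.0499 that was lost with another scaling (RLE size factors, 0.0528), with no filter on low counts (0.0556), with the compared groups alone (0.102) and without any single library other than talazoparib replicate 2 (0.0540 to 0.232). Without talazoparib replicate 1 its log2 fold change was 0.43. The combination against romidepsin gave log2 0.53 (adjusted p = 0.0886), which did not pass, although DESeq2 (0.0279) and limma on log2(FPKM + 1) (0.0467) called it, as did 5 other alternatives. The authors' deposited table gives Gadd45a a fold of 1.59 with an adjusted p of 0.00748 for talazoparib and 2.0 with 6.21e-06 for the combination. For the combination against romidepsin, the authors' values are a fold of 1.45 with an adjusted p of 0.0396.

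Gadd45b and Gadd45g, the less abundant relatives, are induced in other settings by cytokines and stress. Gadd45b was at 5.98 and 4.35 CPM in the controls, 5.63 and 6.69 under romidepsin, 7.72 and 4.71 under talazoparib and 5.93 and 5.92 under the combination. For Gadd45b, talazoparib replicate 1 was the highest of all libraries and talazoparib replicate 2 was below all but control replicate 2. Gadd45g was at 6.68 and 6.01 CPM in the controls, 7.68 and 9.0 under romidepsin, 7.24 and 5.17 under talazoparib and 7.19 and 7.25 under the combination. Both romidepsin libraries of Gadd45g lay above all the others. The counts behind these values were 131 to 246 for Gadd45b and 155 to 331 for Gadd45g, and neither gene passed the test in any comparison. The 95% interval of the averaged talazoparib change was -0.32 to 0.53 on the log2 scale for Gadd45b and -0.44 to 0.19 for Gadd45g. The Gadd45a value (0.60) was outside both, but the Gadd45a interval of 0.31 to 0.89 overlapped that of Gadd45b. The difference between the relatives was not tested.

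Mt1 was at 1617 and 1200 CPM in the controls, 1727 and 1665 under romidepsin, 1052 and 746 under talazoparib, and 998 and 1111 under the combination. Mt2 was at 1698 and 1360 CPM in the controls, 1805 and 1738 under romidepsin, 1099 and 943 under talazoparib, and 1047 and 1175 under the combination. For both genes, all 4 libraries with talazoparib were below all 4 without it, and the romidepsin libraries were the highest. The arms with and without talazoparib also did not overlap, in either direction, for 32.8% of all tested genes. The Mt1 group means were 1408 ± 295, 1696 ± 44.1, 899 ± 217 and 1054 ± 79.7 CPM (SD, n = 2 each), and those of Mt2 were 1529 ± 239, 1771 ± 47.3, 1021 ± 111 and 1111 ± 90.3 CPM.

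Mt2 fell with talazoparib by 0.58 on the log2 scale against the control (SE 0.13, adjusted p = 0.0275) and with the combination by 0.46 (SE 0.13, adjusted p = 0.0423). The first call was lost without control replicate 1 (log2 -0.42, adjusted p = 0.173) or talazoparib replicate 2 (-0.48, 0.0806), with limma and no filter on low values (0.0590) and with the compared groups alone (0.0879). The second was lost without any 1 of the control, romidepsin or combination libraries (-0.61 to -0.30, 0.0524 to 0.239) and with library totals in place of TMM (-0.35, 0.0740), with limma (0.0880 to 0.111) and with no filter on low counts (0.0507). Mt1 gave log2 -0.65 (adjusted p = 0.0577) with talazoparib and -0.42 (adjusted p = 0.149) with the combination, and neither passed. DESeq2 put Mt1 past the threshold with talazoparib (adjusted p = 0.00503), as did the fit without talazoparib replicate 1 (log2 -0.92, adjusted p = 0.0146). In the authors' deposited table, Mt1 was 1.57-fold lower with talazoparib (adjusted p = 0.0238) and Mt2 1.5-fold lower (adjusted p = 0.0206). For the combination against the control, the authors' deposited table gives neither gene an adjusted p under 0.05 (Mt1 0.163, Mt2 0.0688).

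Against romidepsin, both metallothioneins were lower with talazoparib (Mt1 log2 -0.92, adjusted p = 0.0253, Mt2 log2 -0.79, adjusted p = 0.0129) and with the combination (Mt1 -0.69, 0.0472, Mt2 -0.67, 0.0186). The calls of both genes were lost when either romidepsin library was left out, in both comparisons (adjusted p of 0.0725 to 0.162). Those of Mt1 and Mt2 in the combination were also lost without either combination library (0.0882 to 0.193), that of Mt1 in the combination without either control library (0.0537 and 0.0541), and that of Mt1 with talazoparib without talazoparib replicate 2 (0.0659). With talazoparib, the compared groups alone gave no call (0.0886 for Mt1 and 0.0636 for Mt2), and in the combination Mt1 was not called with library totals, limma or no filter (0.0559 to 0.0862).

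**Figure D2:**
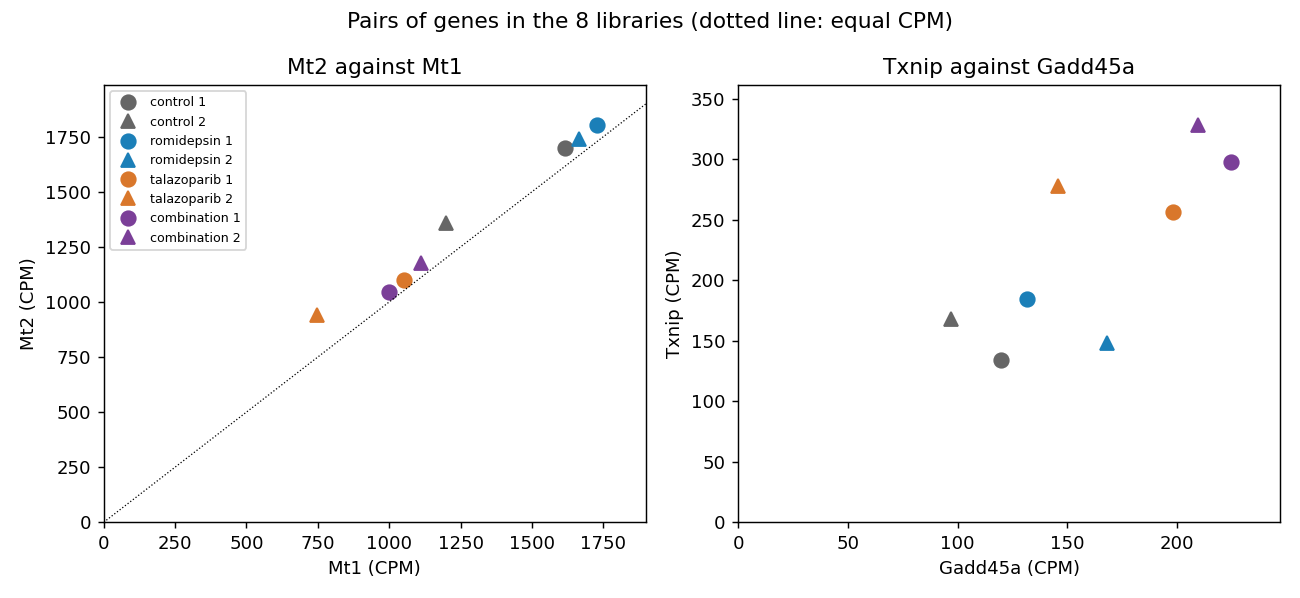
Left, CPM of Mt2 against Mt1, and right, CPM of Txnip against Gadd45a, 1 point per library. The metallothioneins follow a common line close to equal CPM (dotted), with control replicate 2 and talazoparib replicate 2 above it, while libraries of similar Gadd45a differ in Txnip.

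Mt1 and Mt2 moved together from library to library, with a Pearson correlation of log2 CPM of 0.981 over the 8 libraries, which share treatments. The ratio of Mt2 to Mt1 counts was 1.04 to 1.06 in 6 libraries, 1.13 in control replicate 2 and 1.26 in talazoparib replicate 2. Both are metallothionein genes with short transcripts, and how alike their sequences are was not measured. The sources used here do not say how reads that match both were counted, so the split between them is less certain than their sum. Their summed level was 2559 to 3532 CPM in the 4 libraries without talazoparib and 1689 to 2286 CPM in the 4 with it. Gadd45a and Txnip had a correlation of 0.714, and Txnip and Mt2 of -0.850. The romidepsin libraries had Gadd45a above the controls (132 and 168 against 120 and 96.8 CPM) with Txnip in the range of the controls in 1 library (148) and above it in the other (184).

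The contrast that averages both talazoparib comparisons, with and without romidepsin, rests on 4 libraries in each arm and was chosen after the group comparisons were seen. In it, 4 of the 6 members were called, 2 as rises and 2 as falls, against 30.2% of all tested genes (16.5% rises and 13.7% falls). Txnip rose by 0.87 on the log2 scale (SE 0.101, 95% interval 0.64 to 1.1, adjusted p = 0.00107) and Gadd45a by 0.60 (SE 0.126, 95% interval 0.31 to 0.89, adjusted p = 0.0101). Mt2 fell by 0.63 (SE 0.0899, 95% interval -0.83 to -0.42, adjusted p = 0.00243) and Mt1 by 0.67 (SE 0.129, 95% interval -0.96 to -0.37, adjusted p = 0.00740). The arms did not overlap for Txnip, Mt1 and Mt2, as for 32.8% of all tested genes in either direction. For Gadd45a they did, since romidepsin replicate 2 (168 CPM) lay above talazoparib replicate 2 (146 CPM). Each of these 4 calls held under all 16 alternatives, scalings and left-out libraries included, with the highest adjusted p at 0.0380 for Gadd45a, 0.0335 for Mt1, 0.0139 for Mt2 and 0.00755 for Txnip. Gadd45b (log2 0.10, adjusted p = 0.705) and Gadd45g (log2 -0.12, adjusted p = 0.532) passed under none of them.

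**Figure D3:**
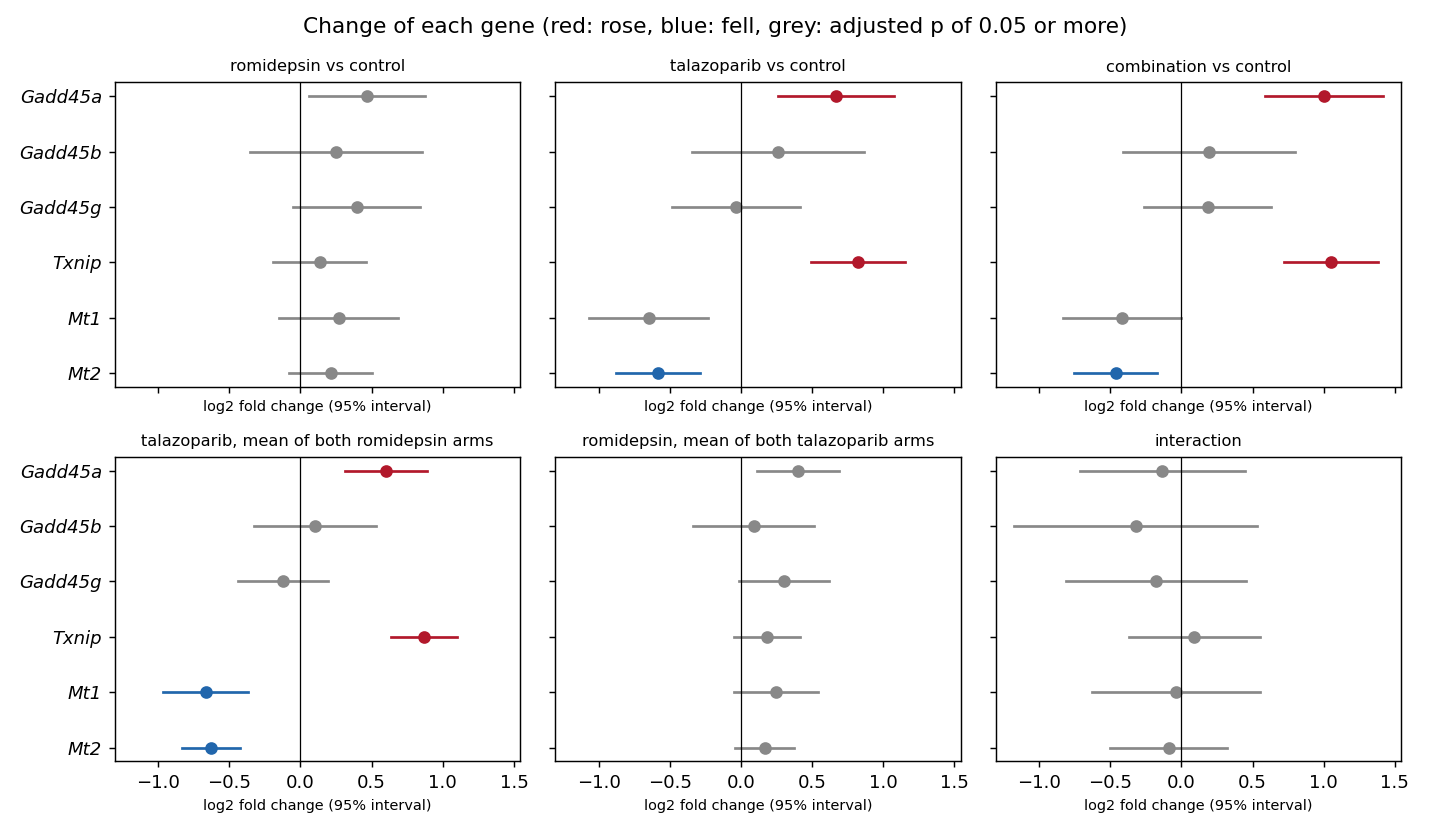
Log2 fold change of each gene with its 95% interval in 6 comparisons; red marks an adjusted p under 0.05 with a rise, blue with a fall and grey the rest. Colour appears in the panels for talazoparib and the combination, with 4 coloured genes in the averaged contrast, and the intervals of the interaction all cross 0.

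In the single comparisons against control, the members called were 3 of 6 with talazoparib (background 11.1%) and 3 of 6 with the combination (17.5%). Against romidepsin they were 3 of 6 for the combination (11.7%) and 3 of 6 for talazoparib (8.81%). The members called differed: Txnip and Mt2 in all 4 comparisons, Gadd45a in both against control, and Mt1 in both against romidepsin. Whether these comparisons differed from each other was not tested. The interaction, which tests whether the talazoparib change differed with romidepsin present, gave log2 values of -0.13 for Gadd45a, -0.32 for Gadd45b, -0.18 for Gadd45g, 0.09 for Txnip, -0.04 for Mt1 and -0.09 for Mt2. All had an adjusted p of 0.999, with 0.0168% of all genes called, and 0 of the 6 had an unadjusted p under 0.05 or were called by DESeq2 or limma. The intervals were wide, for example -0.71 to 0.44 for Gadd45a and -0.37 to 0.55 for Txnip, so that a departure from additive log2 changes of this size was not detectable.

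**Figure D4:**
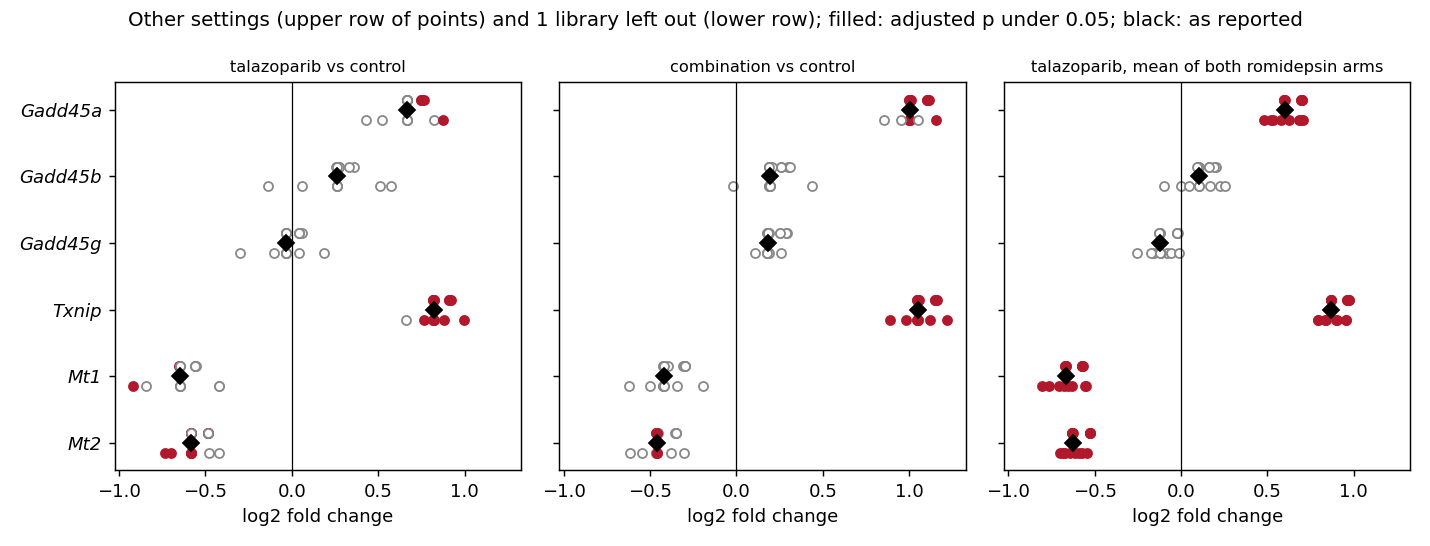
Log2 fold change of each gene under other settings (upper points) and with 1 library left out (lower points) in 3 comparisons; filled points have an adjusted p under 0.05 and black diamonds are the values as reported. Txnip, Gadd45a, Mt1 and Mt2 stay filled throughout in the averaged talazoparib contrast, whereas each of these 4 genes loses or gains the call under at least 1 of them in the talazoparib comparison.

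Romidepsin alone against the control asks directly whether an HDAC inhibitor raised these genes. None of the 6 was called, and 1, Gadd45a, had an unadjusted p under 0.05 (0.0298). DESeq2 and limma called 0 as well, against 0.0251% of all tested genes by edgeR. The log2 fold changes were 0.47 for Gadd45a (95% interval 0.06 to 0.88), 0.39 for Gadd45g (-0.05 to 0.84), 0.27 for Mt1 (-0.15 to 0.69), 0.25 for Gadd45b (-0.35 to 0.86), 0.21 for Mt2 (-0.08 to 0.50) and 0.14 for Txnip (-0.19 to 0.46), each with an adjusted p of 0.940. The 2 libraries of each group did not overlap for Gadd45a, Gadd45g, Mt1 and Mt2, as for 37.3% of all genes. A doubling (log2 1) lay outside the interval of all 6 genes, unadjusted for the number of genes. Averaged over both talazoparib arms, romidepsin gave log2 0.40 for Gadd45a (adjusted p = 0.499), 0.31 for Gadd45g (0.695), 0.25 for Mt1 (0.768), 0.18 for Txnip (0.785), 0.17 for Mt2 (0.779) and 0.09 for Gadd45b (0.945). Again 0 of 6 were called, with 1 (Gadd45a) at an unadjusted p under 0.05 and 0 by DESeq2 or limma, against 0.0251% of all genes. Added to talazoparib, romidepsin gave log2 values from -0.07 (Gadd45b) to 0.33 (Gadd45a), each with an adjusted p of 1.0, and 0 of 6 at an unadjusted p under 0.05, 0 by DESeq2 and 0 by limma (background 0.0251%).

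Other genes that HDAC inhibitors often induce were read beside them. Of 25 listed, 19 were tested, and with romidepsin 0 were called by edgeR, DESeq2 or limma and 2 had an unadjusted p under 0.05. Their median log2 change with romidepsin was 0.19, beside 0.00 over all tested genes. H1f0, the linker histone whose induction is a usual readout of HDAC inhibition, was at 269 and 248 CPM in the controls and 348 and 320 CPM with romidepsin (log2 0.37, SE 0.158, adjusted p = 0.940). Under the alternatives this log2 change was 0.30 to 0.42. H1f0 fell to 127 and 87.2 CPM with talazoparib and 131 and 124 CPM with the combination (averaged log2 -1.33, adjusted p = 0.000322). Cdkn1a, the cell-cycle inhibitor p21, was at 17.7 to 23.1 CPM in the 4 libraries without talazoparib and 114 to 148 CPM in the 4 with it (averaged log2 2.78, adjusted p = 7.15e-06), and had log2 0.19 with romidepsin (adjusted p = 0.940). In the averaged talazoparib contrast, in which 16.5% of all genes rose and 13.7% fell, 5 of the 19 genes rose (3 to 10 under the alternatives), Btg2, an antiproliferative gene, among them (log2 1.15, adjusted p = 4.60e-05), and 2 fell (2 to 4 under the alternatives), H1f0 and the histone gene Hist2h2be (log2 -1.33, adjusted p = 0.00424). Their median was 0.20.

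Partners of the GADD45 proteins in the MAP kinase cascade and the cell cycle were 20 tested genes, of which 4 rose and 5 fell with talazoparib averaged, beside 30.2% of all genes called (median log2 -0.13, all genes -0.00). Under the alternatives 2 to 5 rose and 2 to 6 fell, with a median of -0.16 to -0.03. Cdkn1a, listed here too, and Ppm1d, a phosphatase that ends damage signalling (log2 0.44, adjusted p = 0.00666), rose. Npm1, the nucleolar protein nucleophosmin that binds Gadd45a (log2 -0.32, adjusted p = 0.00675), and Map2k6, a kinase of the stress cascade (log2 -0.80, adjusted p = 0.00883), fell. With romidepsin 0 were called by edgeR, DESeq2 or limma and 3 had an unadjusted p under 0.05, and the smallest p were those of Tdg, a DNA glycosylase (log2 -2.25, SE 0.665, adjusted p = 0.940), and Mapk8 (log2 0.31, adjusted p = 0.940). The Tdg value rests on 1 control library: the controls were at 62.0 ± 61.4 CPM (SD, n = 2), and its log2 change was -0.52 without control replicate 1 and -3.02 (adjusted p = 0.0267) without control replicate 2.

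Of the thioredoxin system, the binding partners of Txnip and their relatives, 19 genes were tested and 3 rose and 5 fell with talazoparib averaged, beside 30.2% of all genes called (median -0.01). Under the alternatives 2 to 6 rose and 3 to 5 fell, and the median took either sign (-0.06 to 0.09). Sesn2, a stress-induced sestrin, rose from 32.2 to 46.8 CPM without talazoparib to 87.1 to 100.1 CPM with it (log2 1.29, adjusted p = 0.000333), and the glutaredoxin Glrx3 rose by 0.36 (adjusted p = 0.00319). The peroxiredoxin Prdx4 (log2 -0.66, adjusted p = 0.00833) and the reductase Txnrd3 (log2 -0.48, adjusted p = 0.00976) fell. Among 12 tested alpha-arrestins and glucose-sensing genes, 0 rose and 4 fell (median -0.16), a share called near that of all genes (30.2%), with 0 to 1 rises, 2 to 5 falls and a median of -0.25 to -0.06 under the alternatives. The glucose transporter Slc2a3 fell by 0.77 (adjusted p = 0.000334) and Ddit4, an inhibitor of growth signalling, by 0.89 (adjusted p = 0.00363), while Txnip, itself of this family and counted apart, rose. With romidepsin 0 genes of either list were called by edgeR, DESeq2 or limma, with 0 and 1 at an unadjusted p under 0.05. The smallest p there were those of Prdx4 (log2 0.30), Sesn3 (0.26), Nlrp3 (0.77) and Slc2a1 (0.28), each with an adjusted p of 0.940.

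Zinc and copper genes, the setting of the metallothioneins, numbered 25 tested, of which 4 rose (2 to 6 under the alternatives) and 3 fell with talazoparib averaged (median log2 0.08), a share called near that of all genes (30.2%). Mtf1, the factor that drives metallothionein genes, was at 24.6 to 27.2 CPM without talazoparib and 22.9 to 27.3 CPM with it, and its log2 change was 0.00 (adjusted p = 0.988), with either sign among the alternatives. The zinc importers Slc39a6 (log2 -0.68, adjusted p = 0.000755) and Slc39a10 (log2 -1.20, adjusted p = 0.00107) fell. Ccs, the copper chaperone of superoxide dismutase (log2 0.48, adjusted p = 0.00193), and Slc31a2, a copper transporter (log2 0.64, adjusted p = 0.0101), rose. Mt3, a further metallothionein gene of the same locus, was at 24.6 ± 2.17 CPM in the controls, 35.3 ± 0.845 with romidepsin, 30.1 ± 7.32 with talazoparib and 43.9 ± 6.13 with the combination (SD, n = 2 each), and rose with the combination against the control (log2 0.84, adjusted p = 0.0175). That call was lost in 3 of the 17 alternatives, with an adjusted p of up to 0.109, and the averaged talazoparib change of 0.30 had an adjusted p of 0.0939. With romidepsin 0 of the 25 were called by edgeR, DESeq2 or limma and 3 had an unadjusted p under 0.05. Slc31a2 (log2 0.63) and Mt3 (0.52) had the smallest, each with an adjusted p of 0.940.

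Glucocorticoids are another known inducer of metallothionein genes, and 12 glucocorticoid-responsive genes were tested. With talazoparib averaged 3 rose and 1 fell (median 0.02), a share called near that of all genes (30.2%). The fall was that of Ddit4 (log2 -0.89, adjusted p = 0.00363), which is also counted among the glucose-sensing genes. Under the alternatives 1 to 4 rose and 1 to 3 fell, and the median took either sign (-0.05 to 0.13). The co-chaperone Fkbp5 rose by 0.44 (adjusted p = 0.0015), and the cell-death gene Bcl2l11 by 0.49 (adjusted p = 0.0328), a call lost in 7 of 16 alternatives, with an adjusted p of up to 0.105. With romidepsin 0 were called by edgeR, DESeq2 or limma and 1 had an unadjusted p under 0.05, and Cebpb (log2 -0.53) and Il7r (-0.49) had the smallest, each with an adjusted p of 0.940.

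On GRCm38, Gadd45a lies at chromosome 6 (67035096 to 67037457, minus strand), Gadd45b at chromosome 10 (80930073 to 80932204), Gadd45g at chromosome 13 (51846678 to 51848468), Txnip at chromosome 3 (96557957 to 96561883), Mt2 at chromosome 8 (94172664 to 94173568) and Mt1 at chromosome 8 (94179082 to 94180327), the last 5 on the plus strand and all protein-coding. The starts of Mt1 and Mt2 are 6.4 kb apart. Of the other tested genes that start within 200 kb of either, 1 of 7 rose and 1 fell in the averaged talazoparib contrast, in which 30.2% of all genes were called. They were Slc12a3, a sodium chloride transporter at 0.133 to 0.217 CPM without talazoparib and 0.634 to 0.911 CPM with it (log2 2.18, adjusted p = 0.00205), and Nudt21, a factor of messenger RNA cleavage (log2 -0.25, adjusted p = 0.0208). Around Txnip 1 of 11 rose (Itga10, log2 0.48, adjusted p = 0.0288) and 2 fell (Rbm8a, -0.24, 0.0463, and Rnf115, -0.20, 0.0313), and around Gadd45b 2 of 16 rose (Ap3d1 and Slc39a3) and 3 fell (Amh, Sf3a2 and Timm13). The 2 tested neighbours of Gadd45g, Sema4d (log2 0.19, adjusted p = 0.0868) and Secisbp2 (-0.05, 0.648), did not pass, nor did the 1 of Gadd45a, E230016M11Rik (-0.02, 0.983).

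Genes on the opposite strand overlap Gadd45a (E230016M11Rik, mean 0.243 FPKM) and Txnip (Gm15441, mean 0.225 FPKM), both far below the member they overlap, and Gm45774, not analysed here, overlaps Mt2. The library kit keeps the strand, but no source used here says whether the counting used it, so reads of such a pair may not have been told apart. Gm15441 gave log2 0.87 with talazoparib averaged (adjusted p = 0.10).

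The genes whose pattern over the 8 libraries was most like each member, by Pearson's r of log2 CPM among 8650 genes of at least 10 CPM, were the following. For Txnip they were Metap1d and Cpne2 (r of 0.989 each) and Cuedc1 (0.988), and for Gadd45a Ift122 and Tmem86a (0.985 each) and Abcd4 (0.983). For Mt2 they were B2m (0.993), Uqcc2 (0.981) and Racgap1 (0.978), and for Mt1 Ube2a (0.987), Pecr (0.985) and Uimc1 (0.984). For Gadd45b they were Serf2 (0.982), Vim (0.961) and Pfdn5 (0.958), and for Gadd45g Cd69 (0.981), Palm (0.978) and Rras (0.977). The points share the 4 treatments, so that genes that move alike with a drug can have a high r. The named genes are also the highest of 8650 candidates over only 8 libraries.

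The T-cell label was met by its markers. All 11 T-cell markers were tested, with a summed level of 3726 to 4107 CPM in every library, and with talazoparib averaged Cd3d (log2 -0.41, adjusted p = 0.00557) and Thy1 (-0.28, 0.00731) fell and Cd247 rose (0.26, 0.0200, up to 0.0725 in the alternatives). The 3 called T-cell markers are a share near that of all genes (30.2%, with 16.5% rises and 13.7% falls). Some genes that mark other cell types also moved with talazoparib. Of 9 myeloid markers 3 were in the table (Lyz2, Itgam and Cd68) and all 3 rose, from a sum of 15 to 17.3 CPM in the controls and 21.2 to 24.4 with romidepsin to 38.0 to 44.3 with talazoparib and 49.3 to 52.2 with the combination. Lyz2 rose by 1.46 (adjusted p = 0.000120) and Itgam by 1.60 (adjusted p = 0.000258). The B-cell marker Cd79b rose by 1.1 (adjusted p = 0.000884), 1 of 2 tested of 6 listed, with sums of 40.3 to 53.1, 49.4 to 53.5, 47.8 to 54.5 and 57.6 to 62.2 CPM in the same order of groups. Of 7 fibroblast markers 4 were tested, with sums of 234 to 247, 212 to 225, 195 to 260 and 217 to 244 CPM, and Pdgfra (log2 0.99, adjusted p = 0.000821) and Pdgfrb (0.94, 0.00332) rose and Acta2 (-0.71, 0.000660) fell. Of 7 erythroid markers 2 were tested, at sums of 4.74 to 7.58 CPM, and Epor rose (0.44, 0.0385, up to 0.136 in the alternatives). The other listed markers were not analysed here. The ribosomal transcript Rn45s took 0.520% and 0.394% of the counts of the 2 libraries with talazoparib alone, beside 0.135% to 0.235% of those of the other 6. The part of these markers and of Rn45s in the changes of the 6 genes was not tested.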

How the data were processed

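RNA of MBL2 cells was sequenced from 8 libraries, 2 for each of 4 groups named in the sample titles. The submitters' processing notes name mm10, HISAT2 (an aligner) and StringTie (an assembler), without versions. The authors deposited 1 table with raw counts per gene and FPKM values, per the file headers. Its signed fold changes and adjusted p-values are the authors' own, per the file headers, and are quoted only as such. It also has 8 other columns of per-sample values whose unit the headers do not state, and they were not used.

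Counts were tested with edgeR 4.0.16 (R 4.3.3), with filterByExpr, TMM scaling and 1 term per group over all 8 libraries, which leaves 4 residual degrees of freedom. Adjusted p-values are Benjamini-Hochberg over 11934 genes, and a gene was called under 0.05. DESeq2 1.42.0 and limma 3.58.1 on log2(FPKM + 1) for genes with a mean FPKM of at least 1, or on log2(FPKM + 0.1), were alternatives, as were other scalings, no filter, the compared groups alone, a replicate block and leaving out each library. The pipeline was tested on simulated data. Depth was 28419156 to 38913292 counts, and the biological coefficient of variation was 12.9%.

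The members and gene lists were chosen with earlier results of these data known. The 2 averaged contrasts were added after the group comparisons were seen. Genes of a list were picked as up to 2 with the smallest p among those called in each direction, or up to 2 with the smallest p where none was called. Not every gene so picked is named for every list and comparison. Cdkn1a, H1f0 and Mtf1 are always named. The 3 genes most like each member by r are also named. Genes within 200 kb are counted, and of those around Txnip, Gadd45b, Mt1 and Mt2 the called ones are named, which is narrower than the rule set for them. Slc12a3 and Mt3, and the counts of neighbours, were taken from that rule, and Gm15441 was singled out for its overlap. Positions are from GENCODE (GRCm38) and promoters from RefSeq (GRCm38.p6).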

Additional observations from a re-analysis of the deposited data

How the results depend on the processing

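With 2 libraries a group, single comparisons often changed with 1 library, and 794 of 900 alternative values of the members kept direction and side of the threshold, 61 lost a call, 9 gained a call and 36 changed sign. The averaged talazoparib contrast kept 4 members called, and the averaged romidepsin contrast, romidepsin against control, combination against talazoparib and the interaction kept 0, under each alternative run. Fitted on the compared groups alone, 1 member was called with talazoparib against control (3 as reported) and 0 against romidepsin (3). Leaving out 1 library gave 0 to 3 members called for talazoparib against control, 1 to 3 for the combination against control, 0 to 4 for the combination against romidepsin and 0 to 3 for talazoparib against romidepsin. Signs changed for small values. Gadd45g with talazoparib against control was 0.062 with library totals and 0.039, 0.043 and 0.039 with limma on log2(FPKM + 1), log2(FPKM + 0.1) and log2(FPKM + 1) with no filter, and Gadd45b in the combination against romidepsin was 0.049 with library totals and 0.044, 0.053 and 0.044 with the same limma settings. With 1 library left out, log2 ranged from -0.30 to 0.19 for Gadd45g and -0.14 to 0.57 for Gadd45b (talazoparib against control), -0.017 to 0.44 for Gadd45b (combination against control), -0.040 to 0.30 for Txnip (romidepsin against control), -0.38 to 0.33 for Gadd45b and -0.0047 to 0.48 for Gadd45g (combination against talazoparib), -0.17 to 0.077 for Gadd45b (combination against romidepsin), and -0.038 to 0.40 for Gadd45a and -0.39 to 0.32 for Gadd45b (talazoparib against romidepsin). In the interaction it ranged from -0.34 to 0.10 for Gadd45a, -0.63 to 0.080 for Gadd45b, -0.40 to 0.086 for Gadd45g, -0.076 to 0.27 for Txnip, -0.27 to 0.23 for Mt1 and -0.25 to 0.065 for Mt2, and for Gadd45b from -0.10 to 0.26 (talazoparib averaged) and -0.065 to 0.29 (romidepsin averaged). Mtf1 with talazoparib averaged was -0.0015 with RLE size factors, -0.0013 with DESeq2 and -0.064 to 0.063 with 1 library left out. The cause was not tested. Library totals in place of TMM moved the median log2 change of all genes by 0.10 for talazoparib and 0.11 for the combination, and the share of rises among called genes to 79.2% and 80.5%, and to 76.4% in the averaged contrast. The genes called over the whole table ranged from 142 (without control replicate 1) to 1828 (DESeq2) for talazoparib against 1321 as reported, from 306 (without control replicate 1) to 3062 (compared groups only) for the combination against 2091, and from 1936 (without control replicate 1) to 4031 for talazoparib averaged against 3605. For the combination and talazoparib against romidepsin they ranged from 156 to 1998 (1397 as reported) and from 76 to 1773 (1051). For romidepsin they were 0 to 10 (3), averaged 0 to 81 (3), for the combination against talazoparib 0 to 27 (3) and for the interaction 1 to 8 (2). The difference between replicates 1 and 2 was correlated between groups at -0.333 to 0.287, negative wherever romidepsin alone was compared and positive elsewhere. This does not decide whether the numbers pair the libraries or follow a batch. A replicate block gave 2 members called with talazoparib (not Gadd45a, adjusted p = 0.0709) and 2 with the combination (not Mt2, 0.0522) against control, 3 in each comparison with romidepsin, 4 in the averaged talazoparib contrast, and 860 and 1603 genes with talazoparib and the combination, and Gadd45b at -0.024 with talazoparib against romidepsin.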

Other observations

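Nlrp3, an inflammasome sensor on the list of glucose-sensing genes, rose with the combination against the control (log2 1.48, SE 0.311, adjusted p = 0.0181 by edgeR) and had log2 0.77 with romidepsin alone (adjusted p = 0.940). Its level was low, at a mean of 1.41 CPM in the controls and 3.94 CPM in the combination. Under the alternatives its log2 change with the combination was 0.59 to 1.58. Sesn1, a second stress-induced sestrin, also rose with the combination (log2 0.62, SE 0.141, adjusted p = 0.0229), as did Slc31a2 (log2 1.1, SE 0.192, adjusted p = 0.00965). Slc31a2 was low too, at a mean of 1.92 CPM in the controls and 4.11 CPM in the combination. Each of these 3 calls was lost when any 1 of the control or combination libraries was left out, with an adjusted p of 0.0826 to 0.110 for Nlrp3, 0.0828 to 0.157 for Sesn1 and 0.0522 to 0.0803 for Slc31a2. In the authors' deposited table, romidepsin against control had 11 genes with an adjusted p under 0.05, none of them a member, talazoparib 1416 and the combination 1991.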
